A study of Danio rerio with 45 samples.

Results

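The gene lrmp encodes the lymphoid-restricted membrane protein, and its RNA was followed here along the animal-vegetal axis of early zebrafish (Danio rerio) embryos. It is 1 of the 12670 genes in the deposited count table and fills 1 row there, with no second row of the same symbol. It was chosen by its own counts, as a maternal gene whose difference between the ends of the embryo is larger at each later stage. The difference between the end sections is therefore given as a description, without a test. Tests were kept for the middle sections, for the level summed over the sections of an embryo sample and for other genes.

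The labels name no mutation, strain or treatment. Embryos of about 4 cells, 1 hour after fertilisation (1 hpf), of about 64 cells (2 hpf) and of about 1000 cells (3 hpf) were cut across the axis into 5 sections, from A at the animal end, where the cells divide, to E at the vegetal end, which holds the yolk. Each section gave 1 library of total RNA after removal of ribosomal RNA. Counts were available for 40 libraries of 8 embryo samples, of which the 1 hpf stage had 3, the 2 hpf stage 2 and the 3 hpf stage 3. The labels call the samples of a stage biological replicates but do not say how many embryos each one pooled. Libraries held 1355607 to 6566549 counts, and the lowest total belonged to section E of 3 hpf replicate 1. The section labels were checked with RNAs of known position. Over all libraries pou5f3, an RNA richer on the animal side, lay at 765 to 1079 CPM in A against 244 to 356 CPM in E, where CPM stands for read counts scaled to a common library size. The RNA of dazl, found at the vegetal pole, lay at 25.9 to 80.0 CPM in A against 2670 to 4703 CPM in E. This check covers the ends only. At 1 hpf the mean of pou5f3 was higher in B than in A (989 ± 129 and 821 ± 52.3 CPM, SD, n = 3).

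In zebrafish, lrmp is the gene hit by the futile cycle mutation, a maternal-effect mutation, which shows in the embryos of mutant mothers. Without the maternal product, the centrosome brought by the sperm is not held to the nucleus, the pronuclei do not meet and spindles do not form around the chromosomes. In mammals the related protein is known as IRAG2 or Jaw1, sits in the membrane of the endoplasmic reticulum and nuclear envelope, and binds receptors for inositol trisphosphate (IP3). A maternal RNA is made in the oocyte and is present in the embryo before its own genome is transcribed.

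Levels are CPM, scaled to each library's total and its TMM factor, a correction for differences in composition between libraries. A level is thus the share of lrmp among the reads counted in a section after removal of ribosomal RNA, adjusted by the TMM factor. Equal amounts of RNA also entered each library, so a level does not tell how much an embryo holds. Less lrmp RNA and more of other RNA in a section cannot be told apart in a level, nor can fewer cells and less RNA per cell.

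At 1 hpf lrmp RNA was present in all sections, with the highest mean in C. In section A the replicates had 292, 305 and 385 CPM. In section B they had 482, 470 and 344 CPM, and in section C 485, 521 and 451 CPM. Section C was thus the highest of the 5 in every replicate, above both ends. Section D had 243, 334 and 239 CPM, and section E 283, 292 and 439 CPM. Both ends therefore lay in the same range, and D was the lowest section in replicates 1 and 3 but not in replicate 2.

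At 2 hpf the profile was highest at the animal end and lower in each section toward the vegetal end. Section A had 497 and 482 CPM, B 414 and 431 CPM, and C 380 and 372 CPM. The sections stood in the same order in both embryo samples, with D at 251 and 316 CPM and E at 85.9 and 189 CPM. Section E was the lowest in each, and its 2 values were the farthest apart of any section at this stage. The value of 189 CPM came from replicate 2, whose section E was shallow (242 counts of lrmp in a library of 1466266).

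At 3 hpf the first 3 sections were level with each other and the lrmp level was low at the vegetal end. Section A had 489, 432 and 445 CPM, B 437, 438 and 442 CPM, and C 431, 480 and 414 CPM. The ranges of A, B and C overlapped. Section D had 116, 286 and 410 CPM, the widest spread of any section at any stage in absolute terms. Section E had 20.9, 44.2 and 43.7 CPM, from 25, 82 and 87 counts. The exact 95% binomial (Clopper-Pearson) interval of the lowest of these libraries ran from 13.5 to 30.8 CPM, which covers counting error only. Every library of section E at 3 hpf lay below every other library of the series.

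**Figure D1:**
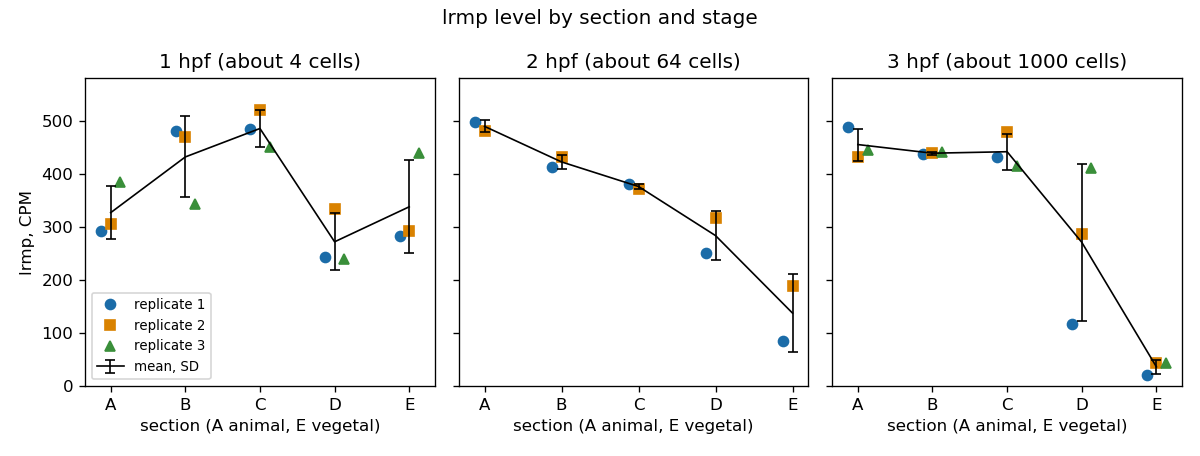
lrmp level (CPM, vertical axis from 0) in sections A to E at 1, 2 and 3 hpf, with 1 point per library, symbols by replicate, and the mean with its SD as a line (n = 3, 2 and 3). The profile is highest in C at 1 hpf, runs downward from A to E at 2 hpf, and at 3 hpf is level from A to C with 20.9 to 44.2 CPM in E.

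The difference between the ends, A minus E, was larger at each later stage, which is the pattern the gene was chosen for. It was -0.04 ± 0.23 on the log2 scale at 1 hpf, 1.95 ± 0.31 at 2 hpf and 3.64 ± 0.30 at 3 hpf (SE of the edgeR fit over all 40 libraries; 3, 2 and 3 embryo samples). In single embryo samples the level in A was 1.03, 1.04 and 0.876 times that in E at 1 hpf. At 2 hpf the same ratio was 5.79 and 2.55, and at 3 hpf 23.5, 9.76 and 10.2. The ratios of the 3 stages did not overlap. The median over all genes was 0 at 1 hpf, -0.03 at 2 hpf and 0.01 at 3 hpf. In this contrast 10.5%, 14.5% and 17.8% of all genes passed the edgeR test at 1, 2 and 3 hpf, from which nothing is read about lrmp. A total of 51 of 12668 genes had a larger A minus E difference than lrmp at 3 hpf, and 7242 had a larger one at 1 hpf.

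The levels at both ends differed between stages, by more in E than in A. In section E the mean was 338 ± 87.4 CPM at 1 hpf, 138 ± 73.0 CPM at 2 hpf and 36.3 ± 13.3 CPM at 3 hpf (SD). The ranges of these 3 stages did not overlap, and the mean at 3 hpf was 0.107 times that at 1 hpf. In section A the mean was 327 ± 50.3 CPM at 1 hpf, 490 ± 11.2 CPM at 2 hpf and 455 ± 30.1 CPM at 3 hpf. The values of section A at 2 and 3 hpf overlapped each other and lay above all those at 1 hpf, with a mean at 3 hpf 1.39 times that at 1 hpf. Section B averaged 432 ± 76.3, 423 ± 12.4 and 439 ± 2.56 CPM at 1, 2 and 3 hpf. Section C averaged 486 ± 34.6, 376 ± 5.47 and 442 ± 34.0 CPM, and its values at 2 hpf lay below those of both other stages. Section D averaged 272 ± 53.7, 284 ± 46.2 and 271 ± 148 CPM, with overlapping ranges at all 3 stages.

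Ordered by mean, the 15 combinations of stage and section ran from section A at 2 hpf (490 CPM) to section E at 3 hpf (36.3 CPM). Neighbours in that order had overlapping ranges in 12 of 14 cases. The neighbours that did not overlap were B and C at 2 hpf, and E at 2 hpf and E at 3 hpf. The first 6 places, from 490 to 432 CPM, were held by A at 2 hpf, C at 1 hpf, A, C and B at 3 hpf and B at 1 hpf. The last 2 places, after D at all 3 stages, were held by E at 2 hpf and E at 3 hpf.

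Expressed as shares of the 5 section levels, each section counted with equal weight, section E held 15.9%, 15.2% and 23.6% of the lrmp signal at 1 hpf. At 2 hpf it held 5.28% and 10.6%, and at 3 hpf 1.40%, 2.63% and 2.49%. Section A held 16.3%, 15.9% and 20.7% at 1 hpf, 30.6% and 26.9% at 2 hpf, and 32.7%, 25.7% and 25.3% at 3 hpf. The share of E at 3 hpf was below and the share of A above all their values at 1 hpf. At 3 hpf the largest step between neighbouring sections was that from D to E, with D above E by 2.45, 2.68 and 3.22 on the log2 scale in the replicates. At 1 hpf the same step was -0.22, 0.19 and -0.88, without a common direction.

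**Figure D2:**
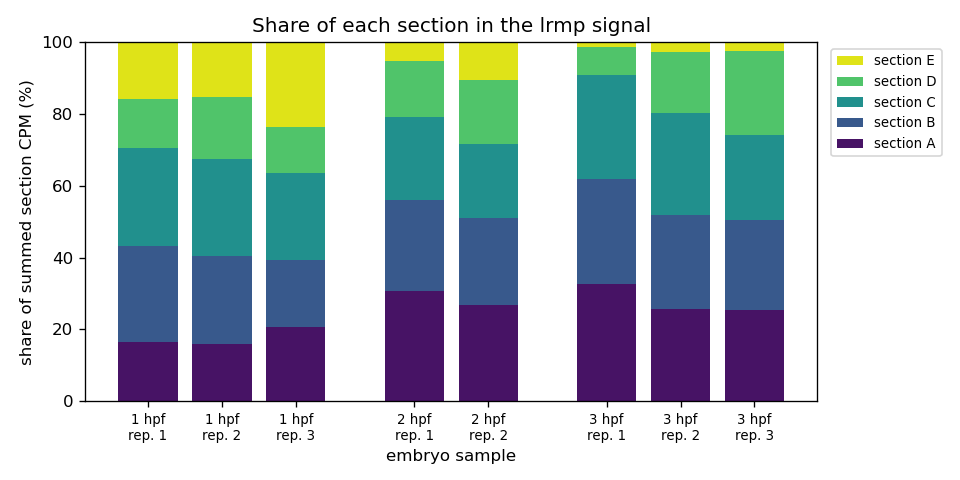
Share of each section (%) in the summed CPM of the 5 sections, with 1 bar per embryo sample grouped by stage and sections stacked from A at the bottom to E at the top. The share of E lies between 15.2% and 23.6% at 1 hpf and between 1.40% and 2.63% at 3 hpf.

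The difference that chose the gene was that between sections A and E. Sections B, C and D came from the same embryo samples, and their tests were chosen with earlier results of these data known. They were tested in a separate edgeR quasi-likelihood fit to their 24 libraries, with the embryo sample as a block and Benjamini-Hochberg adjustment over 12665 genes. The question was whether lrmp levels in D, next to the end section, lay below those in B and C. At 1 hpf the means were 338 CPM in E, 327 CPM in A and 272 CPM in D. E lay above D in replicates 1 and 3 and below it in replicate 2 (292 and 334 CPM). How a lower D at that stage relates to the vegetal end was not tested. C exceeded D at 1 hpf by 0.86 ± 0.20 (log2, SE; edgeR adjusted p = 0.0176), with C higher in 3 of 3 embryo samples, where 2.11% of all genes passed in either direction. At 3 hpf C exceeded D by 0.75 ± 0.21 (edgeR adjusted p = 0.0448; 3.77% of genes passed), by 1.89, 0.74 and 0.01 in the 3 embryo samples. D adjoins E, and the low level of E at 2 and 3 hpf was part of what chose the gene. The tests of C minus D and B minus D at those stages are therefore not independent of that choice. At 2 hpf the difference of C minus D was 0.40 ± 0.24 and did not pass (edgeR adjusted p = 0.741; 2.15% of genes passed).

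B exceeded D at 3 hpf by 0.75 ± 0.21 (log2, SE; edgeR adjusted p = 0.0275; 7.24% of genes passed), by 1.90, 0.61 and 0.11 in the embryo samples. At 1 hpf B minus D was 0.68 ± 0.20 and did not pass (edgeR adjusted p = 0.0616; 3.94% of genes passed), although B was higher in 3 of 3. At 2 hpf it was 0.58 ± 0.24 (edgeR adjusted p = 0.164; 8.02% of genes passed), with B higher in 2 of 2. Leaving out a replicate removed the samples of that number from every stage that had one, so the fit held fewer samples of the other stages too. The calls at 3 hpf were lost without replicate 1 and without replicate 2. Without replicate 1 B minus D was 0.33 (edgeR adjusted p = 0.132) and C minus D was 0.35 (edgeR adjusted p = 0.139). Without replicate 2 the same differences were 0.83 and 0.77 (edgeR adjusted p = 0.134 and 0.257). B minus D at 1 hpf passed without replicate 1 (0.52; edgeR adjusted p = 0.0102). The call of C minus D at 1 hpf was lost without replicate 2 (0.97; edgeR adjusted p = 0.14) and without replicate 3 (0.83; edgeR adjusted p = 0.0602).

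A change of B minus D between stages was not detected. From 1 to 3 hpf it changed by 0.07 ± 0.29 (log2, SE; 95% interval -0.53 to 0.66; edgeR adjusted p = 0.982). From 1 to 2 hpf the change was -0.10 ± 0.31 (interval -0.75 to 0.55; edgeR adjusted p = 0.938) and from 2 to 3 hpf 0.17 ± 0.32 (interval -0.49 to 0.83; edgeR adjusted p = 0.887). In these 3 tests 0.371%, 0.482% and 0.221% of genes passed. Whether this change differs from that of A minus E was not tested, and the first interval allows a change of up to 0.53 downward and 0.66 upward. Its SE rests on a spread estimate shared by the 3 stages. Over single embryo samples the SD of B minus D was 0.28, 0.19 and 0.93 at 1, 2 and 3 hpf. That of C minus D at 3 hpf was 0.94. The SE and intervals that involve 3 hpf may therefore be too narrow.

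Section D at 3 hpf differed between embryo samples in RNAs of known position too. The gene dazl encodes an RNA-binding protein of germ cells, and pou5f3 a transcription factor of genome activation. In section D of replicate 1 lrmp had 116 CPM, with 2256 CPM of dazl and 244 CPM of pou5f3. Replicate 2 had 286 CPM of lrmp, with 1558 CPM of dazl and 408 CPM of pou5f3. In replicate 3 lrmp stood at 410 CPM, dazl at 549 CPM and pou5f3 at 599.8 CPM. The sample with the least lrmp in D was the one with the most dazl and the least pou5f3, and the sample with the most lrmp the reverse. The part of these differences in the values of lrmp was not tested. At 1 hpf section D of the 3 replicates had 243, 334 and 239 CPM of lrmp. The same samples had 414, 211 and 347 CPM of dazl and 448, 451 and 474 CPM of pou5f3. The sample with the most lrmp at 1 hpf thus had the least dazl, but neither the most nor the least pou5f3. At 2 hpf section D of replicates 1 and 2 had 251 and 316 CPM of lrmp, 652 and 1283 CPM of dazl and 368 and 487 CPM of pou5f3, so the sample with more lrmp there had more of both.

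**Figure D3:**
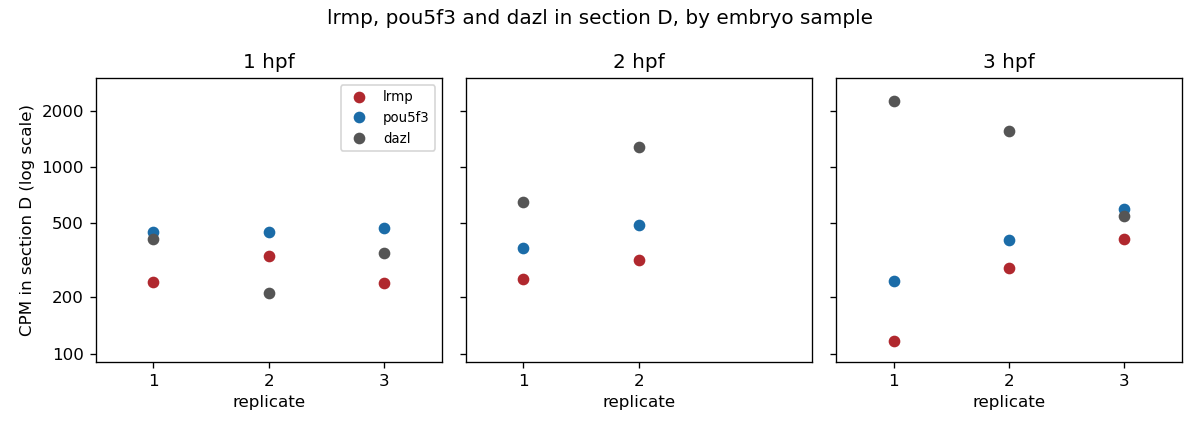
Levels of lrmp, pou5f3 and dazl in section D (CPM, log axis), with 1 point per gene and embryo sample at 1, 2 and 3 hpf. At 3 hpf lrmp runs from 116 CPM in replicate 1 to 410 CPM in replicate 3, while dazl runs from 2256 to 549 CPM in the same samples.

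The level over all sections was compared between stages after adding up the 5 libraries cut from each sample. The question was whether the lrmp level in these sums differed between stages. The sums held 6277 to 11237 counts of lrmp. They gave 377, 405 and 378 CPM at 1 hpf, 337 and 393 CPM at 2 hpf, and 386, 394 and 394 CPM at 3 hpf, and all 3 ranges overlapped. From 1 to 3 hpf the difference was 0.02 ± 0.06 (log2, SE; 95% interval -0.13 to 0.17; edgeR adjusted p = 0.986), where 1.74% of 12667 genes passed. From 1 to 2 hpf it was -0.08 ± 0.07 (interval -0.25 to 0.08; edgeR adjusted p = 1), where 0 genes passed with edgeR, 24 passed with DESeq2 and 402 had an unadjusted edgeR p under 0.05. From 2 to 3 hpf it was 0.10 ± 0.07 (interval -0.07 to 0.27; edgeR adjusted p = 0.725; 0.103% of genes passed). With the replicate number as a block 800, 56 and 575 genes passed in these 3 comparisons, and lrmp did not pass in any. A sum weights sections by their depth, and section E was shallow at 3 hpf. With the 5 sections weighted equally the mean section level was 371 ± 13.8 CPM at 1 hpf, 342 ± 23.0 CPM at 2 hpf and 329 ± 26.8 CPM at 3 hpf (SD). The difference from 1 to 3 hpf was then -0.18 ± 0.07 and did not pass either (limma adjusted p = 0.307). Equal amounts of RNA entered each library whatever its section held, so neither weighting gives the level of a whole embryo.

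The genes whose profile was most like that of lrmp were found by Pearson correlation over the 40 libraries, after the mean of each embryo sample had been removed from the log2 CPM. A total of 8426 other genes with a mean of at least 10 CPM and a descriptive symbol were ranked, with a median r of 0.0296. Symbols of the kind LOC, si: or zgc: were left out, so no gene with such a symbol could appear. Libraries of 1 embryo sample share their cutting and depth, so r is a description. The nearest of the ranked genes was pcnt, which encodes pericentrin, the scaffold of the material around the centrioles (r = 0.909). Next came the row stil_1, for a protein of centriole duplication (r = 0.905), and bcor, which encodes a transcriptional corepressor (r = 0.897). The others were asap2a, a regulator of Arf GTPases, jmjd1ca, of a histone demethylase family, dusp1, a phosphatase of MAP kinases, tnk2b, a tyrosine kinase, and chd2, a chromatin remodeller, with r from 0.866 to 0.872.

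Likeness in shape did not mean likeness in size. At 3 hpf the A minus E difference was 3.36 ± 0.38 for pcnt (log2, SE), near the 3.64 of lrmp. It was 1.56 ± 0.18 for tnk2b, 1.07 ± 0.18 for stil_1, and 0.55 to 0.98 for the other 5. At 1 hpf pcnt stood apart from lrmp, at -1.45 ± 0.33, with section A at 386 ± 267 CPM and section E at 1037 ± 468 CPM (SD, n = 3). The 8 genes were chosen for this likeness, so these values are a description.

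**Figure D4:**
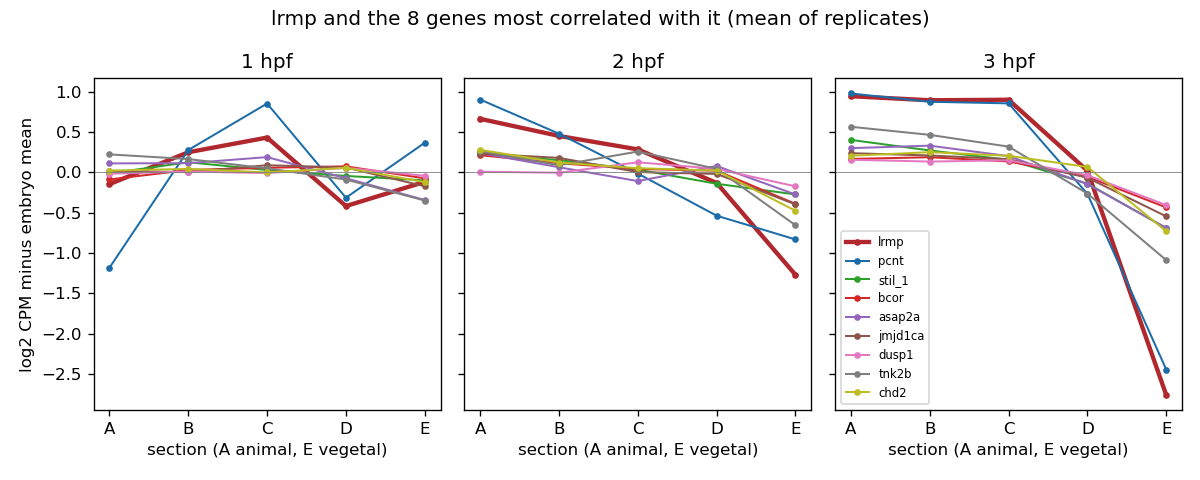
Mean over replicates of the log2 CPM minus the embryo mean, in sections A to E at 1, 2 and 3 hpf. Lines show lrmp (thick red) and the 8 ranked genes most correlated with it. At 3 hpf lrmp and pcnt (blue) run together, with A above E by 3.64 and 3.36 in the fit, and the other 7 genes vary less.

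Other genes were taken from 5 lists by known function, with 97 symbols other than the symbol lrmp, of which 74 were in the count table. The symbols without a row include irag2, a synonym of lrmp itself, so they are not all further genes. The lists cover nuclear envelope anchoring, dynein-based linkers of nucleus and centrosome, centrosome and centriole, IP3 receptor signalling and maternal-effect genes of the first cleavages. The pooled counts are therefore not counts of attachment genes alone. At 1 hpf the A minus E difference passed above 0 for 11 of these 74 genes and below 0 for 6, where 4.68% and 5.81% of all 12668 genes passed in these directions (14.9% and 8.11% of the listed genes). At 2 hpf the counts were 21 and 8, beside 7.19% and 7.30% of all genes. At 3 hpf they were 25 and 9 (33.8% and 12.2% of the listed genes), beside 8.66% and 9.14% of all genes. Of these 25 and 9 genes, 12 and 3 were in the centrosome and centriole list. The median A minus E difference of the listed genes was 0.06, 0.12 and 0.13 at 1, 2 and 3 hpf, with 0, -0.03 and 0.01 over all genes. With library totals as the scaling the splits were 19 and 4, 28 and 3, and 34 and 6 at 1, 2 and 3 hpf. That scaling also moved the median of all genes toward A. Taken from mean log2 CPM rather than from the fit, it was 0.12, 0.16 and 0.26, against -0.005, 0 and 0.05 with TMM. The shares of all genes under this and the following settings are not given here, so nothing is read from these counts about the lists. Without section E of 2 hpf replicate 2 the counts at 2 hpf were 15 and 3, and without replicate 2 they were 13 and 2.

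The proteins that span the nuclear envelope form the LINC complex, in which SUN proteins of the inner membrane bind nesprins of the outer one. Of 18 measured genes of this complex and of nuclear envelope anchoring, 4 were higher in A and 4 in E at 3 hpf (22.2% each, beside 8.66% and 9.14% of all genes). The nesprin gene syne2a averaged 239 ± 34.0 CPM in section A at 3 hpf against 50.2 ± 12.7 CPM in section E (SD, n = 3), a difference of 2.28 ± 0.24 (log2, SE; edgeR adjusted p = 5.1e-09). It was already 1.86 ± 0.23 at 1 hpf (edgeR adjusted p = 1.49e-07). The nesprin gene syne1a, which has a second row, stood at 9.03 ± 1.93 CPM in section A, against 1.93 ± 0.50 CPM in E, and was higher in A (2.23 ± 0.54; edgeR adjusted p = 0.00277, and 0.0654 without replicate 2). Higher in E were tor1, of the torsin family of envelope ATPases (-0.72 ± 0.13), and lbr, the lamin B receptor (-0.44 ± 0.09). The SUN gene sun1a differed by 0.29 ± 0.10 at 3 hpf (edgeR adjusted p = 0.0484), and sun1b, at -0.11 ± 0.12, did not pass.

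Dynein and its partners draw the nucleus along microtubules toward the centrosome. At 3 hpf 5 of 15 measured genes were higher in A (33.3%, beside 8.66% of all genes), and 1 was higher in E (6.67%, beside 9.14%). The gene higher in E was ndel1b, for a dynein regulator, which has a second row (61.8 ± 9.82 CPM in section A, against 412 ± 228 CPM in E; -2.69 ± 0.22; edgeR adjusted p = 1.3e-11). Its paralogue ndel1a was measured near the lower end of the range, at 4.04 ± 1.92 CPM in section A, against 1.07 ± 1.43 CPM in E (1.80 ± 0.59; edgeR adjusted p = 0.0307). The ndel1a difference was 3.09 without replicate 2 (edgeR adjusted p = 0.0563) and 1.64 without replicate 3 (edgeR adjusted p = 0.169). It did not pass without replicate 1 either (edgeR adjusted p = 0.116), and the call was lost under 6 of 12 alternatives in all. The dynein adaptor gene bicd2 was higher in A by 0.73 ± 0.17 (edgeR adjusted p = 0.00165).

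The centrosome and centriole list had 28 measured genes, of which 5 were higher in A and 3 in E at 1 hpf, 11 and 1 at 2 hpf, and 12 and 3 at 3 hpf. The shares of all genes were 4.68% and 5.81%, 7.19% and 7.30%, and 8.66% and 9.14% at these stages, and a difference between the stages in the list's counts was not tested. Among the 3 higher in E at 3 hpf was nin (-1.37 ± 0.20, edgeR adjusted p = 2.06e-06). Its difference was -1.23 ± 0.20 at 1 hpf and -0.99 ± 0.24 at 2 hpf. Of 7 measured genes of IP3 receptor signalling, 2 were higher in A at 3 hpf and 0 in E, beside the same 8.66% and 9.14% of all genes, and counts in a list of 7 are too small to set against these shares. The IP3 receptor gene itpr2 averaged 327 ± 48.5 CPM in section A, against 146 ± 12.2 CPM in E (1.16 ± 0.12; edgeR adjusted p = 4.34e-09), and the phospholipase gene plcg1 differed by 0.28 ± 0.09 (edgeR adjusted p = 0.0206, and 0.121 and 0.287 without replicate 1 and replicate 3). Of 7 maternal-effect genes of the first cleavages, 2 were higher in A and 2 in E at 3 hpf, beside 8.66% and 9.14% of all genes. Higher in A were the importin gene kpna7 (0.60 ± 0.09) and the mitotic kinase gene aurkb (0.28 ± 0.07; edgeR adjusted p = 0.00226, and 0.0892 and 0.056 without replicate 2 and replicate 3). The centriole gene sass6 (-0.43 ± 0.08) and mid1ip1l, a regulator of the cytoskeleton (-0.42 ± 0.07), were higher in E.

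The A minus E difference of 3 of the 74 listed genes changed from 1 to 3 hpf, all toward A, and 0 toward E (edgeR, Benjamini-Hochberg at 0.05 over 12668 genes), while 0.371% and 0.324% of all genes did so (0.695% in both directions). The changes were 4.80 ± 0.50 for pcnt (log2, SE; edgeR adjusted p = 4.52e-07), 1.04 ± 0.16 for the centrin gene cetn3 (edgeR adjusted p = 0.00152) and 0.98 ± 0.22 for stil_1 (edgeR adjusted p = 0.03). The call of stil_1 was lost under 5 of 11 alternatives, among them without replicate 1, 2 or 3 (0.68, 1.22 and 1.08; edgeR adjusted p = 0.223, 0.108 and 0.121) and without section A of 1 hpf replicate 1 (0.90; edgeR adjusted p = 0.0999). That of cetn3 was lost without replicate 2 (1.02; edgeR adjusted p = 0.0661) and without the replicate block (1.05; edgeR adjusted p = 0.67). All 3 were in the centrosome list, and the other lists had 0 genes called. In lists of their size 0 is near the 0.695% of all genes, so no contrast between the lists is read from it. The change from 1 to 2 hpf passed for 2 listed genes, pcnt and cep350, and that from 2 to 3 hpf for cetn3, beside 0.0237% of all genes in each. For lrmp the change from 1 to 3 hpf was 3.69 ± 0.38, given as a description. The lists were drawn up with earlier results of these data known. Of the ranked genes, pcnt and stil_1 are also those most correlated with lrmp, so these counts are no independent evidence. The shares above hold for the main fit only. Those of all genes under other settings are not given, so nothing is read about the lists from the counts that follow. DESeq2 called 8 listed genes, 6 toward A and 2 toward E, and 2 passed without replicate 1, 2 or 3 in turn, as without section A of 1 hpf replicate 1.

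**Figure D5:**
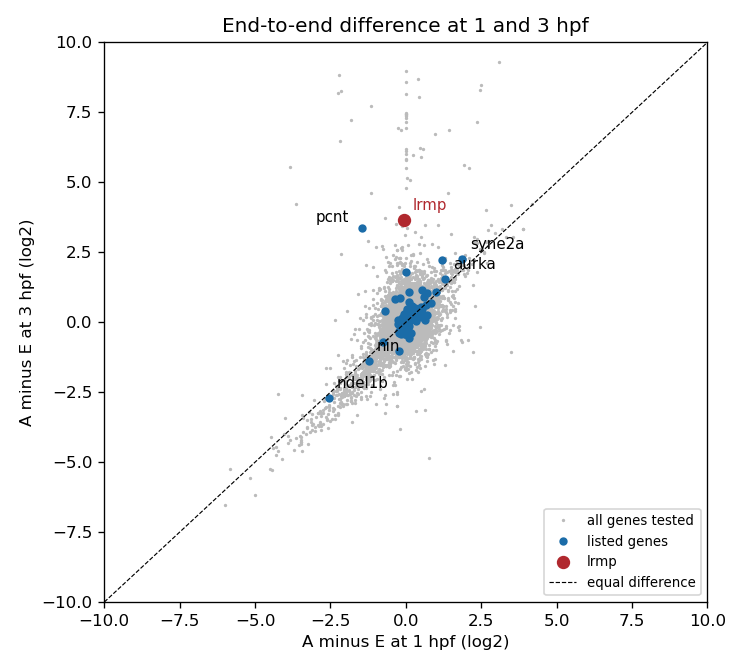
A minus E difference (log2) at 1 hpf on the horizontal and at 3 hpf on the vertical axis for 12668 genes (grey), the 74 listed genes (blue) and lrmp (red), with a dashed line where both are equal. lrmp (-0.04 and 3.64) and pcnt (-1.45 and 3.36) lie far above the line, and ndel1b (-2.56 and -2.69) and syne2a (1.86 and 2.28) lie close to it.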

How the data were processed

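RNA was measured in sections of zebrafish embryos by TOMO-seq. The authors deposited whole-number read counts per gene, without normalisation as the values show. The submitters' processing notes name build GRCz11 and the tools STAR 2.7.11, fastp 0.23.4, DESeq2 and HTSeq 2.0.4 without their roles, and the gene annotation and strand setting of the counting are not given in the sources used here. Per the labels' protocols, RNA was cleaned with lithium chloride, 20 ng entered each strand-specific library and ribosomal RNA was depleted. Every gene listed has at least 60 counts in all. The labels describe 45 libraries, and the 5 of the third 2 hpf replicate have no count column and are not analysed here.

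From the counts, edgeR 4.0.16 (R 4.3.3) gave TMM factors, CPM, and quasi-likelihood tests after its standard filter on low counts, with Benjamini-Hochberg adjustment over all genes at 0.05. A total of 3 fits were made: sections B to D, all sections, and sums per embryo sample. The first 2 had the embryo sample as a block, since the labels give sections with the same stage and number as the same biological replicate. After subtraction of section means, such sections had a median correlation of 0.656 at 1 hpf, 0.101 at 2 hpf and 0.587 at 3 hpf. Same-numbered sums of 1 and 3 hpf also deviated together (r = 0.701, 0.684 and 0.899), though numbers 1 and 2 could not be told apart, with crossed values of 0.694 and 0.72. The pairing of the sums comes from the data, not from the labels. The p-values reflect how much these samples vary, which may be technical in part.

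SE are those of the fits, and in the main fits the spread of a gene was estimated over all stages together. Log2 values for single embryo samples and correlations used log2(CPM + 0.5). Listed genes were named where their change from 1 to 3 hpf passed, or else up to 2 with the largest called difference in each direction at 3 hpf. The genes sun1a, sun1b and nin were added after their values were seen. Of several rows for a symbol the most abundant entered, and its reads may be shared with close copies. Alternatives used limma 3.58.1 and DESeq2 1.42.0. The tests were checked on simulated counts drawn without effects of the embryo sample, so this check does not cover the block or the pairing. The gene, the lists and the tests were chosen with earlier results of these data known. RefSeq's table of another assembly lists irag2 as a synonym of lrmp, and no coordinates are given.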

Additional observations from a re-analysis of the deposited data

Results flagged for a closer look

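Listed genes whose A minus E difference changed between stages are given here because the change itself passed the edgeR test over all genes. Since the lists were drawn up with earlier results of these data known, these calls are no independent evidence. From 1 to 3 hpf these were pcnt (4.80 ± 0.50; adjusted p = 4.52e-07), cetn3 (1.04 ± 0.16; adjusted p = 0.00152) and stil_1 (0.98 ± 0.22; adjusted p = 0.03), all on the log2 scale with SE. From 1 to 2 hpf they were pcnt (3.08 ± 0.53; edgeR adjusted p = 0.0127) and cep350, for a protein of the centriole wall (0.79 ± 0.12; edgeR adjusted p = 0.00501). From 2 to 3 hpf it was cetn3 (1.04 ± 0.19; edgeR adjusted p = 0.0244).

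The change of pcnt from 1 to 3 hpf passed under all 11 alternatives, with edgeR or DESeq2 adjusted p from 9.36e-14 to 0.000682. Those of cetn3 and stil_1 were lost under 2 and 5 alternatives, as given above. From 1 to 2 hpf, pcnt lost its call without replicate 1 (2.13; edgeR adjusted p = 0.0787), without section A of 1 hpf replicate 1 (2.84; edgeR adjusted p = 0.0938) and without the block. In the same step cep350 lost it without replicate 2 (0.66; edgeR adjusted p = 0.85), without section E of 2 hpf replicate 2 (0.64; edgeR adjusted p = 0.146) and without the block. From 2 to 3 hpf, cetn3 lost it without replicate 1, 2 or 3 (edgeR adjusted p = 0.122, 0.244 and 0.0966) and without the block. Over all alternatives the adjusted p ran up to 0.67 for cetn3 from 1 to 3 hpf, 0.368 for stil_1, 0.574 for pcnt from 1 to 2 hpf, 1 for cep350 and 0.826 for cetn3 from 2 to 3 hpf.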

How the results depend on the processing

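Under the 12 alternatives the A minus E difference of lrmp ranged from -0.08 to 0.09 at 1 hpf, 1.36 to 2.54 at 2 hpf, and 3.33 to 3.87 at 3 hpf. All these values lay within 1 SD, taken over single embryo samples, of the main fit. With so few embryo samples per stage, leaving a replicate out can hardly exceed that SD. Some alternatives also left the end sections of a given stage untouched, so these ranges are a description. The counts of listed genes that follow are given without the shares of all genes under the same settings, so nothing is read from them about the lists. In mean log2 CPM the median A minus E difference of all genes was -0.005, 0 and 0.05 at the 3 stages with TMM. Library totals moved it to 0.12, 0.16 and 0.26. With these totals 5 listed genes changed from 1 to 3 hpf, with DESeq2 8, without the replicate block 1, and 5 when 2 hpf replicate 2 lacked its sections C and D, where 29 were called at 2 hpf. At 2 hpf 18 listed genes were called without section E of 2 hpf replicate 2 and 16 without the replicate block, and at 3 hpf 19 without it. Leaving out replicates gave 15 to 25 at 2 hpf.

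The differences of the middle sections kept their direction under the 11 alternatives, and many lost or gained the call. At 3 hpf B minus D did not pass with DESeq2 (0.79), without the replicate block (0.68), with that stage alone and a replicate block (0.75) or with all 5 sections in the fit (0.73), and ran from 0.33 to 1.18 with replicates left out. C minus D at 3 hpf did not pass under the same settings (0.80, 0.69, 0.76 and 0.74; 0.35 to 1.22 with replicates left out). C minus D at 1 hpf did not pass with DESeq2 (0.86), without the block (0.85) or with all 5 sections (0.84), and ran from 0.79 to 0.97 with replicates left out. B minus D passed at 1 hpf with that stage alone (0.68) and when 2 hpf replicate 2 lacked its sections C and D (0.68), from 0.52 to 0.77 with replicates left out, and at 2 hpf with that stage alone (0.57). The adjusted p over the alternatives of B minus D ran from 0.00199 to 0.216 at 3 hpf and 2.83e-05 to 0.387 at 1 hpf, and that of C minus D from 0.00281 to 0.326 at 3 hpf and 3.6e-06 to 0.254 at 1 hpf. The cause was not tested.

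The uncalled change of B minus D turned its sign when 2 hpf replicate 2 lacked its sections C and D (0.036, from 1 to 2 hpf) and without replicate 1 (-0.19 to 0.42 from 1 to 3 hpf and -0.13 to 0.60 from 2 to 3 hpf with replicates left out). The embryo total, uncalled too, turned with equal weights of the sections (-0.18 from 1 to 3 hpf and -0.058 from 2 to 3 hpf) and without replicate 1 (-0.17 to 0.0033 from 1 to 2 hpf). With the replicate block the total differed by 0.02 between 3 and 1 hpf (edgeR adjusted p = 0.89), and lrmp passed in none of the comparisons of totals. Without replicate 1 or 2 the 2 hpf stage kept 1 embryo sample, which was assumed to vary like the others. The alternatives without section E of 2 hpf replicate 2 or section A of 1 hpf replicate 1 do not touch the fit to sections B to D. By another measure of likeness 1 of the 8 genes most like lrmp was shared. The smallest count of lrmp was 25, in section E of 3 hpf replicate 1.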

Other observations

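By the Euclidean distance between the 15 means of stage and section, in place of the correlation, the nearest of the same ranked genes was again pcnt (distance 1.48). It was the gene that both measures shared among their first 8. The next were spen, for a nuclear RNA-binding corepressor (1.49), and kif1aa, for a kinesin motor (1.88). Unlike lrmp these had a higher level in A than in E at 1 hpf as well, by 1.63 ± 0.31 for spen and 1.30 ± 0.32 for kif1aa (log2, SE), and by 2.46 ± 0.42 and 2.29 ± 0.39 at 3 hpf. Another of the 8, nbeal1, with a mean of 327 CPM, had a difference of 2.06 ± 0.17 at 3 hpf. These genes were chosen by their likeness and were given no test.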
